A study of Mus musculus with 10 samples.

Results

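The 9 genes described here encode chemokines, receptors and growth factors that bring monocytes into tissue and keep macrophages alive. They were taken by symbol from a table of 52636 mouse genes (Ensembl identifiers, GRCm38 annotation), and all 9 were found once. The table holds raw counts of polyadenylated RNA from 10 mouse melanoma tumours. In 6 tumours the genotype was BrafCA;Cdkn2af/f with Arf6Q67L, an ARF6 GTPase locked in its active state, and 4 control tumours had BrafCA;Cdkn2af/f alone. All 10 tumours thus share BrafCA, an oncogenic form of Braf switched on by Cre, and floxed alleles of the tumour suppressor Cdkn2a. The sources used here do not give the age of the mice, the promoter that drives Cre or the way Arf6Q67L was expressed, nor do they say whether tumours came from separate animals, so p-values measure the spread between these 10 samples.

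In mice, classical monocytes carry the chemokine receptor CCR2 and the surface protein Ly6C. CCR2 ligands draw these cells from marrow and blood into inflamed tissue and tumours, where they can become macrophages. Survival of macrophages depends on CSF1R, a receptor tyrosine kinase with a pair of unrelated ligands, CSF1 and IL-34. In skin, IL-34 from keratinocytes is known for maintaining Langerhans cells.

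The means of 8 of the 9 genes were lower in Arf6Q67L tumours than in controls, yet no gene stood apart from the spread between tumours. Mean levels of Ly6c2, Ccl8 and Ccr2 differed most, with log2 fold changes of -1.92, -1.43 and -1.14 (Arf6Q67L over control). Il34 was the exception, at 0.17. In edgeR's quasi-likelihood test, 0 of 9 passed an adjusted p of 0.05 over all 17286 genes tested, where 0 genes did so (0% called). Adjusted p-values of the 9 lay between 0.403 and 0.839. At an unadjusted p under 0.05 there were 2 of 9, Ccr2 and Ccl8, both lower, against 7.05% of all genes called lower, 4.65% called higher and 11.7% in either direction. DESeq2 and limma-voom with quality weights also called 0 of 9, although DESeq2 called 2.39% of all genes. At an unadjusted p under 0.05 DESeq2 had 4 of 9, against 14.1% of all genes. The median log2 fold change of the 9 was -0.62, and that of all tested genes -0.0017, of which 50.3% were negative. For 0 of the 9 did the groups separate completely, while 1.28% of all genes had every Arf6Q67L tumour below every control and 1.15% every one above. RNA from bulk tissue cannot tell fewer cells of a type from less RNA per cell.

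**Figure D1:**
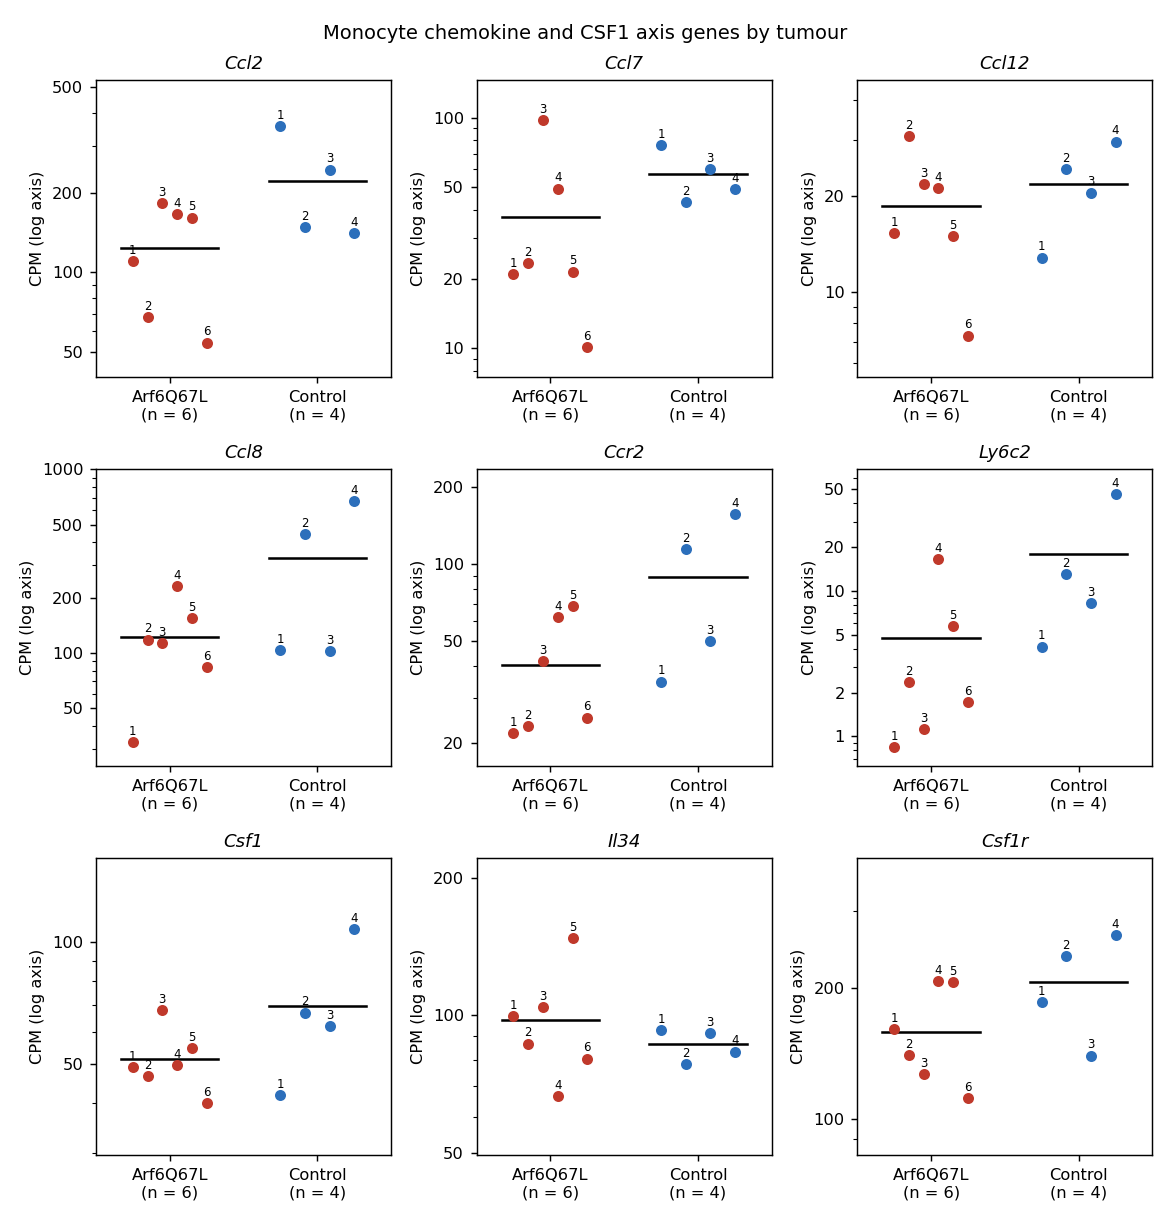
Levels in CPM (counts scaled to library size, log axis) of each gene in 6 Arf6Q67L tumours (red) and 4 control tumours (blue), numbered by tumour, with a line at the mean. The groups overlap for all 9 genes, and controls 2 and 4 are the highest tumours for Ccl8 and Ccr2, while control 1 is the highest for Ccl2.

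Library totals lay between 31372896 and 37918116 counts in Arf6Q67L tumours and between 28635414 and 40869091 in controls, so that the 9 genes were covered by 31 to 19978 counts per library. Of the melanocyte lineage markers, Tyr and Dct were at 0 in every library, and Tyrp1 and Mlana did not exceed 0.101 CPM in any. Pmel lay between 0.524 and 0.940 CPM in Arf6Q67L tumours and between 0.659 and 0.939 CPM in controls. Sox10 lay between 0.0639 and 2.83 CPM and between 0.0629 and 1.27 CPM in these groups. Mitf, the lineage's transcription factor, lay between 11.1 and 26.1 CPM in Arf6Q67L tumours and between 12.02 and 20.2 CPM in controls. By Xist and Y-linked genes, 3 of 6 Arf6Q67L tumours and 1 of 4 controls (control 1) came from females. Library numbers were 1 to 6 in Arf6Q67L tumours and 9 to 12 in controls, and the order of the libraries cannot be told apart from genotype.

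The chemokine genes Ccl2, Ccl7, Ccl12 and Ccl8 lie in a cluster on chromosome 11 within 81229 bases (82035571 to 82116799, GRCm38), all on the plus strand, with Ccl11 between Ccl7 and Ccl12. Their coding sequences were 68.8% to 72.1% identical in pairwise alignment, and their transcripts shared no stretch of 50 bases with each other or with any other annotated gene. In mice CCL2, CCL7 and CCL12 are ligands of CCR2, whereas mouse CCL8 acts mainly through CCR8. Promoter windows from 250 bases before to 50 bases after the start were at hand for Ccl8 and Ccl12, the neighbours with the largest and the smallest difference of the 4. They are shown here (RefSeq, GRCm38.p6, 5′ to 3′ on the gene's strand) with the TATA box, TATAAA, in capitals.
Ccl12 (chr11:82101595-82101894, strand +): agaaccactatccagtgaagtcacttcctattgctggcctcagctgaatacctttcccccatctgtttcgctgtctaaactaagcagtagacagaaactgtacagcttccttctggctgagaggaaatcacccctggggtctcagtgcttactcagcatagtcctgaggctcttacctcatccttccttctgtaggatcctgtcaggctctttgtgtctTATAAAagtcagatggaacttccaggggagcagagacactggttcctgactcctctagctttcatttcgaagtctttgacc
Ccl8 (chr11:82114935-82115234, strand +): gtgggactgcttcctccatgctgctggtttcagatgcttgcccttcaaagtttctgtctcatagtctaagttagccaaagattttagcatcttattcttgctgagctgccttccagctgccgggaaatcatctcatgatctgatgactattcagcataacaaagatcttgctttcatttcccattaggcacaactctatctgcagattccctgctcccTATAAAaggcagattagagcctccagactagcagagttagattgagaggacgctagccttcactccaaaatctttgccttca
The box began 31 bases before the start in Ccl12 and 32 bases before it in Ccl8, and 13.6% of 32851 such windows held TATAAA on either strand. Searched on both strands as well, TTCNNNGAA (STAT), TGANTCA (AP-1) and GAGGAAGT (PU.1) had no match in either window, and occurred in 8.3%, 7.81% and 3.2% of all windows. With 1 matching motif in each window, no matches overlapped.

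Ccl2, the main CCR2 ligand (chromosome 11, 82035571 to 82037453), ran from 54.4 CPM in Arf6Q67L tumour 6 through a median of 135.6 to 182 CPM in tumour 3, against 355, 148.5, 244 and 141 CPM in controls 1 to 4. All 6 Arf6Q67L tumours lay below the control median, and 3 of them below every control. Controls 1 and 3 stood above all Arf6Q67L tumours, while controls 2 and 4 lay within their range. The log2 fold change was -0.85 (SE 0.39, edgeR adjusted p = 0.437), and -0.52 (adjusted p = 0.598) without control 1. This control also had the highest summed neutrophil markers, 278.6 CPM against 48.6 to 100.5 CPM in the other controls, and their part in its Ccl2 level was not tested.

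Ccl7 (82045712 to 82047525), a further CCR2 ligand, ran from 10.1 CPM in Arf6Q67L tumour 6 through a median of 22.5 to 97.5 CPM in tumour 3, against 76.4, 43.2, 59.7 and 49.0 CPM in controls 1 to 4. Here 4 of 6 Arf6Q67L tumours lay below every control and tumour 3 above every control. The log2 fold change of -0.62 (SE 0.54, edgeR adjusted p = 0.701) therefore rested on a group whose members differed 9.63-fold, against 1.77-fold among controls. Without Arf6Q67L tumour 3 it was -1.18 (adjusted p = 0.335).

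Ccl12 (82101845 to 82103400), a rodent CCR2 ligand, ran from 7.32 CPM in Arf6Q67L tumour 6 through a median of 18.3 to 30.9 CPM in tumour 2, against 12.9, 24.4, 20.5 and 29.7 CPM in controls 1 to 4. The groups covered nearly the same range. Its log2 fold change was -0.23 (SE 0.36, edgeR adjusted p = 0.839). It lay at -0.43 without Arf6Q67L tumour 2 and at -0.42 without control 1, but at -0.06 without Arf6Q67L tumour 6 and at -0.04 without control 4 (edgeR adjusted p-values from 0.661 to 0.985).

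Ccl8 (82115185 to 82116799) ran from 32.6 CPM in Arf6Q67L tumour 1 through a median of 115.7 to 231 CPM in tumour 4, against 103, 445.5, 102 and 670 CPM in controls 1 to 4. Only controls 2 and 4 exceeded the Arf6Q67L tumours, and controls 1 and 3 lay below the Arf6Q67L median. The log2 fold change was -1.43 (SE 0.62, edgeR adjusted p = 0.414), and -0.81 (adjusted p = 0.731) without control 4. Ccr8, picked because it encodes the CCL8 receptor in mice, was close to the limit of detection, between 0 and 0.564 CPM in Arf6Q67L tumours and between 0.0507 and 0.566 CPM in controls, where 3 counts correspond to 0.0734 to 0.105 CPM. Controls 1 and 3, high for Ccl2, were thus the low controls for Ccl8.

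Ccr2 (chromosome 9, 124101950 to 124113557), the receptor that classical monocytes follow, ran from 21.9 CPM in Arf6Q67L tumour 1 through a median of 33.6 to 68.5 CPM in tumour 5, against 34.8, 114.9, 50.1 and 157 CPM in controls 1 to 4. All 6 Arf6Q67L tumours were below the control median, and 3 of them were below every control. Controls 2 and 4 stood above every Arf6Q67L tumour, as for Ccl8. The log2 fold change was -1.14 (SE 0.48, edgeR adjusted p = 0.403) and lay at -0.71 (adjusted p = 0.699) without control 4. Ccr2 shared 1.91% of its stretches of 50 bases with other genes.

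Ly6c2 (chromosome 15, 75108158 to 75111970), which encodes the Ly6C protein of monocytes that some T cells also carry, had the lowest counts and the widest spread. It ran from 0.839 CPM in Arf6Q67L tumour 1 through a median of 2.04 to 16.5 CPM in tumour 4, against 4.13, 13.1, 8.28 and 46.1 CPM in controls 1 to 4. In 4 of 6 Arf6Q67L tumours it was below every control, but tumour 4 stood above controls 1, 2 and 3. The log2 fold change was -1.92 (SE 0.92, edgeR adjusted p = 0.456). It ranged from -2.92 without Arf6Q67L tumour 4 (adjusted p = 0.237) to -0.84 without control 4 (adjusted p = 0.814).

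The neighbouring paralog Ly6c1 was 93.8% identical to Ly6c2 in coding sequence, and 14.4% of the stretches of 50 bases in Ly6c2 also occur elsewhere, mostly in Ly6c1. The sources used here do not say how reads matching both were counted, so the split between these genes is uncertain. Ly6c1 averaged 28.1 ± 21.6 CPM in the 6 Arf6Q67L tumours, against 57.1 ± 12.1 CPM in the 4 controls (SD), with a log2 fold change of -1.02 (SE 0.56, edgeR adjusted p = 0.511). The Ly6c2 promoter, shown because this gene had the largest fold change, held the PU.1 motif GAGGAAGT, in capitals, at 2 places, beginning 108 bases before and 26 bases after the start. PU.1 is the myeloid transcription factor encoded by Spi1.
Ly6c2 (chr15:75111922-75112221, strand -): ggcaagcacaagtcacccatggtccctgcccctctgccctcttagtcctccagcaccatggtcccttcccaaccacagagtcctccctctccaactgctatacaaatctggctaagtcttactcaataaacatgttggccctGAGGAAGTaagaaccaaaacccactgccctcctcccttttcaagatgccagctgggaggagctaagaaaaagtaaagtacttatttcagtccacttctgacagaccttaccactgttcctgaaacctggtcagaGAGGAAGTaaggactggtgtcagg
This window held none of the other motifs named above, and a window from a second start nearby held the same pair of matches. The windows of Ccr2 and Csf1 held none of the 4 motifs. Windows of only 5 of the 9 genes were searched, and those of Csf1r, Ccl2, Ccl7 and Il34 were not. A match in a window is a description of its letters, not evidence of binding.

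Csf1, the broadly expressed CSF1R ligand (chromosome 3, 107741048 to 107760469), ran from 39.9 CPM in Arf6Q67L tumour 6 through a median of 49.3 to 68.1 CPM in tumour 3, against 41.7, 67.0, 62.1 and 108.1 CPM in controls 1 to 4. Control 4 alone exceeded all Arf6Q67L tumours, and control 1 was near the bottom of their range. This gave a log2 fold change of -0.44 (SE 0.24, edgeR adjusted p = 0.498), and -0.14 (adjusted p = 0.853) without control 4.

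Il34 (chromosome 8, 110741829 to 110805924) ran from 66.6 CPM in Arf6Q67L tumour 4 through a median of 93.2 to 147.6 CPM in tumour 5, against 92.8, 78.2, 91.55 and 83.3 CPM in controls 1 to 4. The controls were tightly grouped, with a coefficient of variation of 8.05%, against 28.8% in Arf6Q67L tumours. The Arf6Q67L range enclosed every control. Its log2 fold change was 0.17 (SE 0.19, edgeR adjusted p = 0.766), and lay between 0.02 (adjusted p = 0.972) without Arf6Q67L tumour 5 and 0.26 (adjusted p = 0.577) without tumour 4. Of 8 keratinocyte markers, 7 were under the expression filter, and the list summed to between 4.03 and 6.99 CPM in Arf6Q67L tumours and between 4.50 and 6.48 CPM in controls.

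Csf1r (chromosome 18, 61100598 to 61132149), the receptor shared by both ligands, ran from 111.7 CPM in Arf6Q67L tumour 6 through a median of 150.3 to 207 CPM in tumour 4, against 185, 236, 139.9 and 264 CPM in controls 1 to 4. All 6 Arf6Q67L tumours lay below the control median, and controls 2 and 4 lay above all of them. Levels differed 1.86-fold from the lowest to the highest Arf6Q67L tumour and 1.88-fold among controls. The groups gave a log2 fold change of -0.38 (SE 0.22, edgeR adjusted p = 0.548), which was -0.23 (adjusted p = 0.797) without control 4. The end of the gene overlaps Hmgxb3 on the opposite strand (24.9 to 45.2 CPM), and the sources used here do not give the strand setting of the counting, so reads of the overlap cannot be assigned with certainty.

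**Figure D2:**
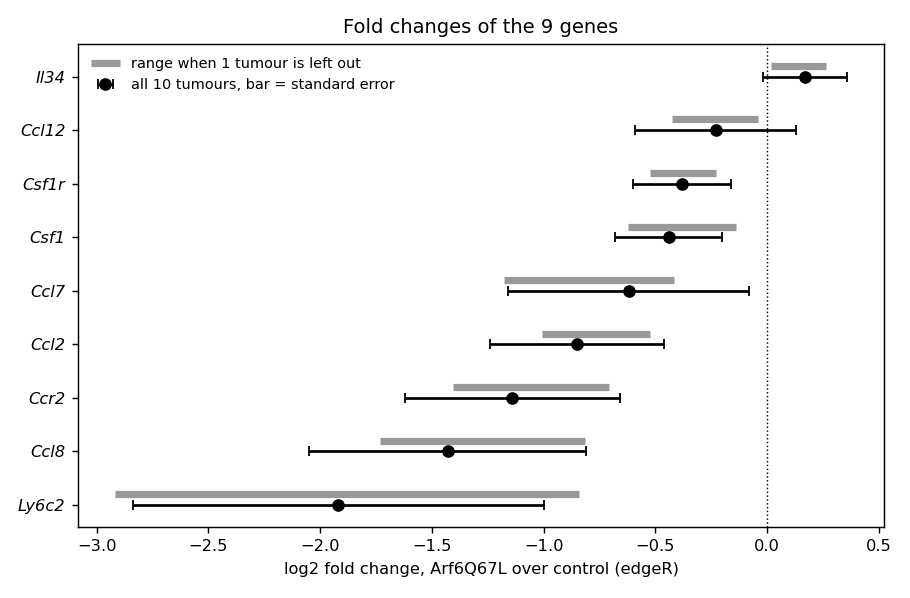
Log2 fold changes of the 9 genes, Arf6Q67L over control, from edgeR with all 10 tumours (points, bars of 1 standard error), and above each the range when 1 tumour is left out (grey). Il34 alone is positive, at 0.17, and the grey range is widest for Ly6c2, from -2.92 to -0.84.

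Each gene was also compared alone by a two-sided exact permutation test on log2 CPM over all 210 splits into 6 and 4 tumours, whose smallest possible p is 0.00476. The exact p-values ran from 0.0714 for Ly6c2 and 0.0952 for Ccr2 to 0.571 for Il34, without adjustment for 9 tests.

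The split by sex is uneven, with 3 female and 3 male Arf6Q67L tumours against 1 female and 3 male controls. With sex as a term in edgeR, the log2 fold changes of Ccr2 and Ccl8 were -0.97 (SE 0.56, unadjusted p = 0.117) and -1.21 (SE 0.74, unadjusted p = 0.138), so that neither stayed under an unadjusted p of 0.05. Those of Ccl2 and Ccl7 were -1.02 (SE 0.32, unadjusted p = 0.012) and -1.15 (SE 0.45, unadjusted p = 0.0296), and no gene of the 9 passed the adjusted threshold, with edgeR adjusted p-values of 0.358 for Ccl2 and 0.432 for Ccl7. Among males, Ccl7 lay between 10.1 and 23.5 CPM in Arf6Q67L tumours and between 43.2 and 59.7 CPM in controls, without overlap. Csf1 (39.9 to 54.6 CPM against 62.1 to 108.1 CPM) and Ly6c2 (1.72 to 5.75 CPM against 8.28 to 46.1 CPM) likewise did not overlap among males, whereas the ranges of the other genes overlapped. The share of all genes that separate in this way among 3 and 3 males was not computed. The ranges are therefore a description only. In females Csf1 ran the other way, with 49.1 to 68.1 CPM in Arf6Q67L tumours and 41.7 CPM in the single control, while Ccl7 lay between 21.0 and 97.5 CPM against 76.4 CPM. A difference between the sexes was not tested.

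Set per kilobase of annotated exon (reads per kilobase and library size, RPKM, averaged over the 10 tumours), Ccl8, Ccl2 and Ccl7 had the highest mean levels of the 9. The level of Ccl8 was 402 RPKM and that of Ccl2 143 RPKM, although Ccl8 was above Ccl2 in only 7 of 10 tumours. Ccl7 (56.3 RPKM), Il34 (47.5), Ccl12 (37.1) and Csf1r (30.8) followed with neighbours that changed places between tumours, Ccl7 being above Il34 in 6 of 10, Il34 above Ccl12 in 6 and Ccl12 above Csf1r in 7. Csf1 was at 11.1 RPKM and below Csf1r in all 10 tumours, Ccr2 at 8.87 RPKM and Ly6c2 at 3.65 RPKM, below Ccr2 in all 10. The level of Il34 per kilobase thus exceeded that of Csf1, averaging 49.8 RPKM against 9.71 RPKM in Arf6Q67L tumours and 44.1 RPKM against 13.2 RPKM in controls. When lengths were taken from the longest protein-coding transcript, an alternative chosen after seeing the data, Ccl12 and Csf1r changed places, as did Ccr2 (10.5 RPKM) and Ly6c2 (12.2 RPKM).

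The balance between related genes was compared within each library as a difference of log2 CPM, in 3 pairs. Ccr2 minus Csf1r averaged -2.09 ± 0.54 (SD, n = 6) in Arf6Q67L tumours and -1.42 ± 0.73 (SD, n = 4) in controls, a difference of -0.67 (exact permutation p = 0.143, adjusted p = 0.222 over the 3 pairs). Without control 1, the single female control, whose value of -2.41 was the lowest of the controls, the difference was -1.0 (exact permutation p = 0.0238, not adjusted). Leaving out any other tumour gave exact permutation p-values from 0.119 to 0.345. Il34 minus Csf1 averaged 0.90 ± 0.35 (SD, n = 6) in Arf6Q67L tumours and 0.39 ± 0.64 (SD, n = 4) in controls, a difference of 0.51 (exact permutation p = 0.148, adjusted p = 0.222). It was 0.76 without control 1 (exact permutation p = 0.0238, not adjusted), where that control was at 1.15 and control 4 at -0.38. With any other tumour left out, exact permutation p-values lay between 0.0952 and 0.381. Ccl2 minus Ccr2 averaged 1.62 ± 0.49 (SD, n = 6) in Arf6Q67L tumours and 1.46 ± 1.64 (SD, n = 4) in controls (exact permutation p = 0.814, adjusted p = 0.814). Controls split widely in this ligand-to-receptor balance, at 3.35 and 2.28 in controls 1 and 3 and at 0.37 and -0.16 in controls 2 and 4, with 5 of 6 Arf6Q67L tumours between these pairs of controls and tumour 1, at 2.32, just above control 3.

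Of 5 pairs of genes tested across the 10 tumours, 2 passed the adjusted threshold. Ccr2 and Ly6c2 had Pearson's r = 0.88 (permutation p = 0.00097, adjusted p = 0.00485) and Spearman's rho = 0.85 (permutation p = 0.00293, adjusted p = 0.00762). Without controls 4 and 2, the tumours farthest from the median of Ccr2, r was 0.76 (exact permutation p = 0.036, adjusted p = 0.177). Spearman's rho was 0.76 there (exact permutation p = 0.0368, adjusted p = 0.092). Leaving out extreme tumours narrows the range of Ccr2 and lowers the number of tumours. This check therefore cannot show whether the relation rested on those tumours. Ccl2 and Ccl7 had r = 0.82 (permutation p = 0.003, adjusted p = 0.0075) and rho = 0.85 (permutation p = 0.00305, adjusted p = 0.00762), and r = 0.65 (exact permutation p = 0.0708, adjusted p = 0.177) without Arf6Q67L tumour 6 and control 1. Within the 6 Arf6Q67L tumours r was 0.75 for Ccr2 and Ly6c2 (exact permutation p = 0.0875, adjusted p = 0.18) and 0.78 for Ccl2 and Ccl7 (exact permutation p = 0.0653, adjusted p = 0.18). There it was also 0.78 for Ccl2 and Ccr2 (exact permutation p = 0.108, adjusted p = 0.18). For Csf1 and Csf1r it was 0.18, and for Il34 and Csf1r 0.20. Over the 10 tumours the ligand and receptor pairs did not pass, with r = 0.35 and rho = 0.28 for Ccl2 and Ccr2 (permutation p = 0.331 and 0.43), r = 0.53 and rho = 0.43 for Csf1 and Csf1r (permutation p = 0.11 and 0.218), and r = -0.08 and rho = -0.31 for Il34 and Csf1r (permutation p = 0.845 and 0.388). Pairs outside these 5 were not tested, but several had r as high, as a description over the same 10 tumours and 9 genes. The highest was 0.91 for Ccl8 and Ccr2, followed by 0.88 for Ccl8 and Ly6c2, 0.81 for Ccr2 and Csf1r and 0.80 for Ccr2 and Csf1.

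**Figure D3:**
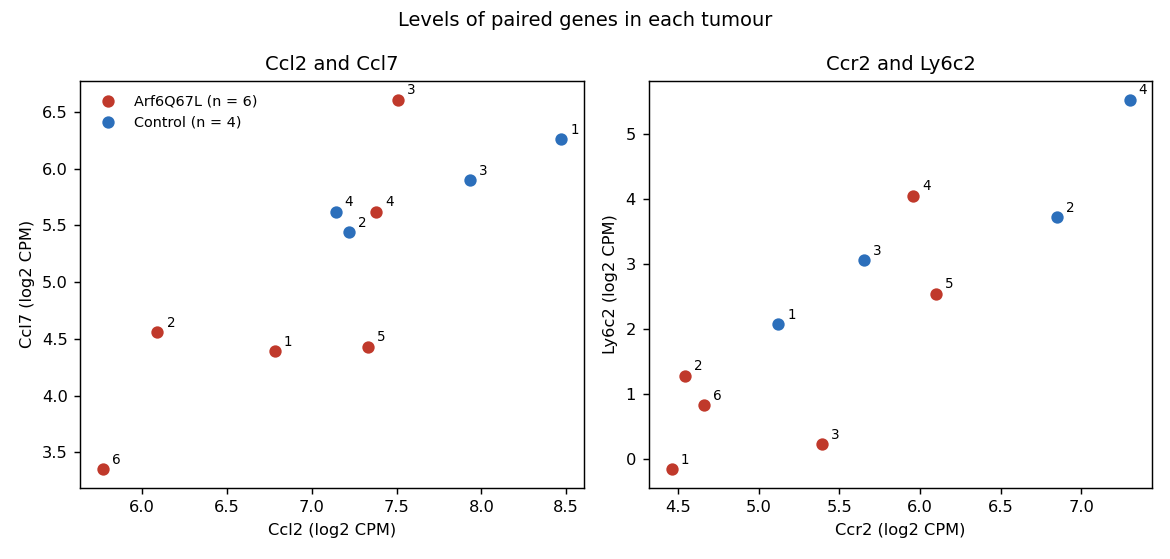
Levels in log2 CPM of Ccl2 against Ccl7 (left) and of Ccr2 against Ly6c2 (right), with 1 numbered point per tumour, Arf6Q67L in red and control in blue. Pearson's r over the 10 tumours is 0.82 on the left, where control 1 is farthest to the right, and 0.88 on the right, where control 4 is at the top.

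The genes most like Csf1r across the 10 tumours, by Pearson's r of log2 CPM as a description, were Gm45552 (0.968), Adrb1 (0.953), Slc11a1 (0.943), Snx20 (0.942) and Tg (0.941). Slc11a1 encodes a metal transporter of phagosomes in macrophages, and its log2 fold change was -1.29 (SE 0.43, edgeR adjusted p = 0.336). Those most like Ccl2 were Phactr1 (0.947), Ifitm2 (0.943), Xbp1 (0.939), Eepd1 (0.938) and Grina (0.936). Xbp1 encodes a transcription factor of the unfolded protein response. Its log2 fold change was -0.17 (SE 0.14, edgeR adjusted p = 0.678), and no gene of these 10 passed the threshold.

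Other chemokines of the CC and CX3C families were next in view. Of 16 listed, 12 were tested, 10 with negative and 2 with positive log2 fold changes, at a median of -1.02. In edgeR 0 were past the adjusted threshold (3 at an unadjusted p under 0.05, against 11.7% of all genes). Ccl3, Ccl5 and Ccl4, inflammatory chemokines of T cells and myeloid cells, had the lowest p-values. Ccl5 lay between 1.27 and 19.3 CPM in Arf6Q67L tumours and between 6.45 and 187 CPM in controls. Ccl3 averaged 1.26 ± 0.964 CPM in the 6 Arf6Q67L tumours, against 12.6 ± 16.2 CPM in the 4 controls (SD). Its log2 fold change was -3.32 (SE 0.98, edgeR adjusted p = 0.285). It was the single gene of the list that DESeq2 called (DESeq2 adjusted p = 0.0172), where 2.39% of all genes were called. Ccl4 averaged 2.12 ± 1.99 CPM with Arf6Q67L, against 11.5 ± 12.6 CPM without it (SD), with an edgeR adjusted p of 0.368.

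Of 14 other chemokine receptors 12 were tested, 9 negative and 3 positive, at a median of -0.48. In edgeR 0 passed the threshold (1 at an unadjusted p under 0.05, against 11.7% of all genes), and DESeq2 called 1, against 2.39% of all genes. That was Ccrl2, which binds chemerin without signalling, at 1.17 ± 0.546 CPM in the 6 Arf6Q67L tumours, against 4.36 ± 3.20 CPM in the 4 controls (SD) (log2 fold change -1.90, SE 0.48, edgeR adjusted p = 0.248). Ccr10, a receptor of skin-homing lymphocytes, was at 0.754 ± 0.323 CPM with Arf6Q67L, against 0.456 ± 0.106 CPM without it (SD). The median was -0.21 without control 2 and -0.24 without control 4.

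Further colony-stimulating factors, related cytokines and receptors were tested in 10 of 13 cases, 8 negative and 2 positive at a median of -0.38 (-0.23 without Arf6Q67L tumour 6), and Csf2, Csf3 and Il3 were under the expression filter. In edgeR 0 passed (4 at an unadjusted p under 0.05, of which 3 lower, against 11.7% of all genes), and DESeq2 called 1, against 2.39% of all genes. That gene was Csf3r, the G-CSF receptor of neutrophils and also a member of the neutrophil list (log2 fold change -1.35, SE 0.32, edgeR adjusted p = 0.239). It lay at 6.63 to 21.3 CPM in Arf6Q67L tumours and 22.8 to 50.1 CPM in controls, without overlap. Of all genes, 1.28% had every Arf6Q67L tumour below every control. S100a8, the neutrophil marker of highest mean level, did overlap, at 1.46 to 62.3 CPM in Arf6Q67L tumours and 2.68 to 135 CPM in controls. Csf2ra, the GM-CSF receptor chain, was at 17.6 ± 4.48 CPM in the 6 Arf6Q67L tumours, against 33.4 ± 18.8 CPM in the 4 controls (SD). Flt3l, a growth factor of dendritic cells, was at 5.54 ± 1.57 CPM with Arf6Q67L, against 8.69 ± 3.27 CPM without it (SD).

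Genes of CSF1 receptor signalling and myeloid transcription factors were all tested, 15 of 17 negative and 2 positive, at a median of -0.38. In edgeR 0 passed the threshold (7 at an unadjusted p under 0.05, all lower, against 7.05% of all genes), and DESeq2 called 0. Irf8, a transcription factor of monocytes and dendritic cells, was at 32.8 ± 9.84 CPM in the 6 Arf6Q67L tumours, against 68.9 ± 37.7 CPM in the 4 controls (SD) (log2 fold change -1.07, SE 0.35, edgeR adjusted p = 0.322). Tyrobp, which encodes the signalling adaptor DAP12, had a log2 fold change of -1.09 (SE 0.40, edgeR adjusted p = 0.361).

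Markers of cell types moved with several of these genes, and their part in the results was not tested. The T cell list, 10 of 10 tested members negative, summed to between 17.0 and 113.6 CPM in Arf6Q67L tumours and to 42.6, 265.6, 34.8 and 371 CPM in controls 1 to 4, so that controls 2 and 4, the high controls for Ccl8, Ccr2 and Csf1r, had the highest sums. The macrophage list, 11 of 14 negative, summed to between 1222 and 2550 CPM in Arf6Q67L tumours and to 1923, 3653, 1995 and 5704 CPM in controls 1 to 4. Its median log2 fold change of -0.83 was -0.37 without control 4. At an unadjusted p under 0.05 edgeR had 8 of the 14 lower and 2 higher, against 7.05% and 4.65% of all genes. Ctss, the marker of this list with the highest mean level, had a log2 fold change of -1.19 (SE 0.44, edgeR adjusted p = 0.364). The 3 positive members were picked after their values were seen. Mertk averaged 88.0 ± 23.2 CPM in the 6 Arf6Q67L tumours, against 52.9 ± 11.5 CPM in the 4 controls (SD; log2 fold change 0.73, SE 0.21, edgeR adjusted p = 0.283, DESeq2 adjusted p = 0.0419), while Cd163 had a log2 fold change of 1.86 (SE 0.68, edgeR adjusted p = 0.361) and Mrc1 of 0.60 (SE 0.46, edgeR adjusted p = 0.65). Arf6Q67L tumour 6, the lowest tumour for Ccl2, Ccl7, Ccl12, Csf1 and Csf1r, had the lowest macrophage sum and the highest mast cell sum (1023 CPM, against 57.2 to 446 CPM in the other Arf6Q67L tumours and 11.2 to 89.5 CPM in controls).

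The monocyte list, 8 of 12 members negative, summed to between 1906 and 5322 CPM in Arf6Q67L tumours and between 3293 and 5306 CPM in controls. Fn1 and Vcan, matrix genes that other cells also express, made up 51.3% and 23.4% of that sum. The dendritic and Langerhans list (8 of 10 negative) summed to 48.9 to 80.6 CPM and 56.7 to 178 CPM in these groups, the neutrophil list (6 of 8) to 16.3 to 116.9 CPM and 48.6 to 278.6 CPM at a median log2 fold change of -0.62 (0.71 without control 1), and the endothelial list (7 of 7) to 77.9 to 269.6 CPM and 129.5 to 315 CPM. Members of the mast cell list were positive in 6 of 6. The fibroblast list (3 of 8 negative) lay between 2172 and 4565 CPM in Arf6Q67L tumours and between 2297 and 4317 CPM in controls. NK cell markers (3 of 6 negative) lay between 6.78 and 89.5 CPM and between 33.3 and 158 CPM, B cell markers (1 of 2) between 1.57 and 111.3 CPM and between 2.11 and 24.0 CPM, and skeletal muscle markers (2 of 6) between 24.0 and 655 CPM and between 6.45 and 1088 CPM. Over all genes tested, 50.3% had negative log2 fold changes. In edgeR 0 members of any of these lists passed the threshold. DESeq2 called 5 of 6 mast cell markers and 1 of 14 macrophage markers, Mertk, all higher in Arf6Q67L tumours. It also called 2 of 7 endothelial markers and 1 of 8 neutrophil markers, Csf3r, all lower. The share of all genes that DESeq2 called was 2.39%.

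**Figure D4:**
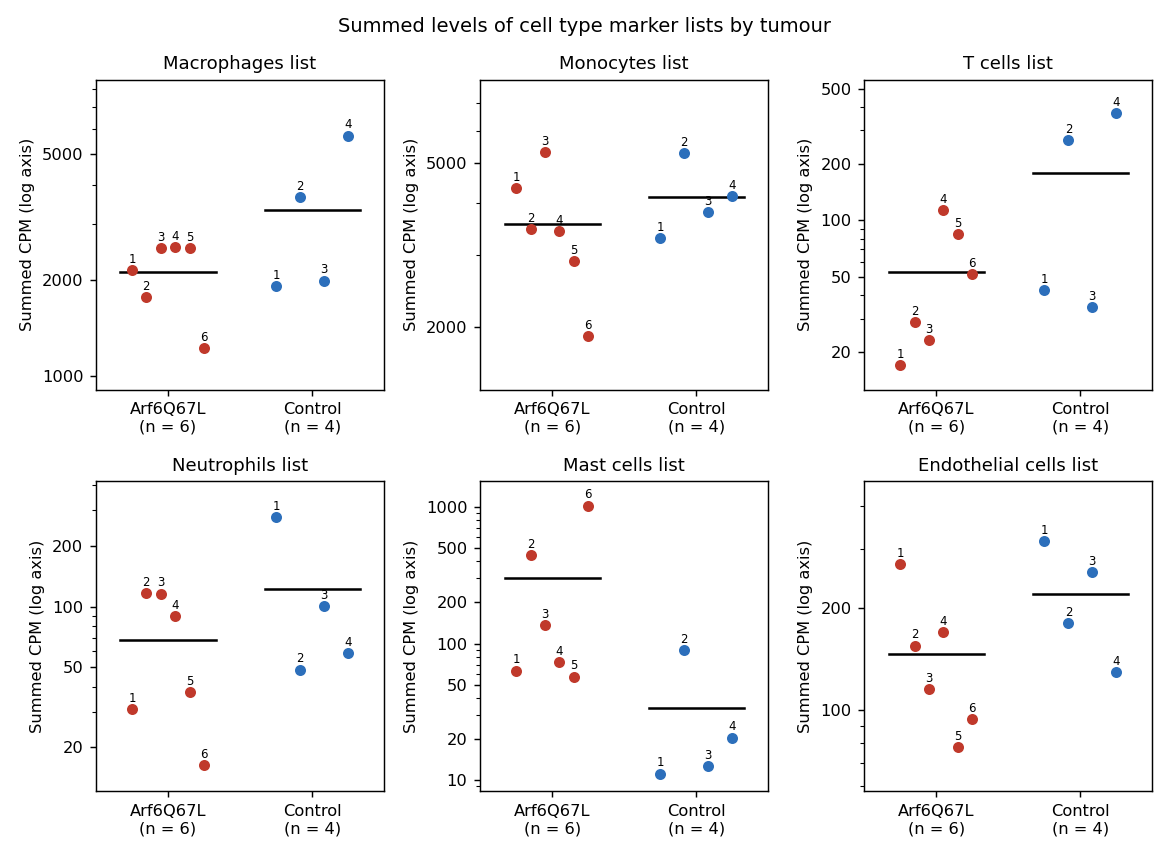
Summed CPM (log axis) of marker lists for 6 cell types in each tumour, numbered within its group, with a line at the mean (Arf6Q67L red, n = 6, control blue, n = 4). Controls 2 and 4 have the highest T cell sums, 265.6 and 371 CPM, and control 1 the highest neutrophil sum, 278.6 CPM.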

How the data were processed

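Polyadenylated RNA of 10 tumours was sequenced from Illumina TruSeq Stranded mRNA libraries, per the labels' protocols. The authors deposited raw counts per gene. Per the submitters' processing notes, which give no roles, STAR 2.5.2b, featureCounts 1.5.1, DESeq2 1.18.0 and GRCm38 were used. The sources used here do not give the strand setting or the treatment of multiply matching reads. All 10 columns matched a sample, and 0 were left over. GENCODE M21 (GRCm38) gave symbols for 99.7% of identifiers and exon lengths.

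Genes were tested in R 4.3.3 by edgeR 4.0.16 (filterByExpr, minimum count 10, 17286 genes kept; TMM factors; glmQLFit, robust; glmQLFTest; Benjamini-Hochberg over all genes kept). The common biological coefficient of variation was 0.416. Standard errors (SE) of edgeR fold changes were derived as the absolute log2 fold change divided by the square root of the test's F statistic. CPM use TMM factors, and log2 CPM a prior count of 2. A count of 0 allows up to 3 counts, and such floors cover counting error only. On simulated data for this comparison over 17286 genes, edgeR called 32% of the 100 genes given a 2-fold change and 64% of the 100 given a 4-fold change, and 4 others falsely. Alternatives were DESeq2 1.42.0, limma 3.58.1 voom with quality weights, DESeq2 size factors, no low-count filter, sex as a term and leaving out each tumour.

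The 9 genes, the gene lists and the tests were chosen with earlier results of these data known, and promoter motifs with the sequences in view. Besides the 9, the text names up to 3 genes of lowest p per pathway list, the 5 most like Csf1r and Ccl2, leading or defining markers of cell type lists, the positive macrophage markers (chosen after their values were seen), and Ccr8, Ly6c1 and Hmgxb3, which were added because of their relation to a gene described. Some genes that this rule names are not reported here. The numbers of the tumours follow accession order and pair none.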

Additional observations from a re-analysis of the deposited data

Results flagged for a closer look

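Of 24 sets of values examined (9 genes and 3 gene differences, in each group), 1 held a tumour that stood apart from its group by Dixon's test, and chance flags about 1 in 20. Ly6c2 in Arf6Q67L tumour 4 was at 16.5 CPM, against 0.839 to 5.75 CPM in the other Arf6Q67L tumours, a gap of 0.687 of the group's range where 0.625 is critical. For genes the test used CPM without logarithms. It was not run on log2 CPM, where this tumour was at 4.05 and the others between -0.16 and 2.54. The same tumour had the highest T cell sum (113.6 CPM) and B cell sum (111.3 CPM) of the Arf6Q67L tumours, and the part of these cells in its Ly6c2 level was not tested.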

How the results depend on the processing

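Each of the 9 fold changes was recomputed under 15 alternatives, and in all 135 cases the direction and the side of the threshold stayed as reported, with a lowest adjusted p of 0.214. Over all genes edgeR called 0, DESeq2 413, limma-voom 2, and leaving out 1 tumour gave 0 to 1 (1 without control 1). Where 0 genes were called, the side of the threshold was the same for every gene and says nothing particular about the 9. The median log2 fold change of the 9 lay between -0.98 and -0.42 with 1 tumour left out. Ccr2 minus Csf1r lay between -1.0 and -0.44, Il34 minus Csf1 between 0.25 and 0.76, and Ccl2 minus Ccr2 between -0.38 and 0.79 over the tumours left out. This last difference reversed without control 2 (-0.20) and without control 4 (-0.38), and the other two passed an unadjusted exact p of 0.05 without control 1, at -1.0 for Ccr2 minus Csf1r and 0.76 for Il34 minus Csf1. The correlations of Ccl2 with Ccl7 (0.65) and of Ccr2 with Ly6c2 (0.76) were not past the adjusted threshold without the 2 farthest tumours, where 8 tumours are left. The cause of these shifts was not tested. No paired analysis was possible because the labels give the groups no shared replicate numbers. The median of the 9 was -0.97 with sex as a term. Differences that no test called are not shown to be absent with 6 and 4 tumours.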
